A study of Homo sapiens with 9 samples.

Results

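Histone and DNA methyltransferases place methyl groups on lysines of histone tails or on cytosines in DNA, and the set described here lists 38 genes for these enzymes and for core subunits of their complexes. Members were found by gene symbol among the probe sets of an Affymetrix expression array that carry a value. Values were present for 36 of the 38 genes, of 9453 genes with values in all. The 36 genes were read by 65 of the 119 probe sets that the array holds for the list. SETDB2, whose 6 probe sets carry no value, and ASH1L, for which the annotation used here names no probe set, were not analysed here.

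RNA came from HT1080, a human fibrosarcoma cell line, in 3 groups of 3 arrays that the series' design text calls biological replicates. In the first group, MTAP+ cells were kept for 48 hours with MT-DADMe-ImmA, an inhibitor of MTAP, at 10 µM. The second was MTAP+ cells without the inhibitor, and the third was MTAP- cells, which lack the enzyme methylthioadenosine phosphorylase and were also not treated. All cells were grown in DMEM. How the MTAP+ cells were made, and whether they are 1 clone, is not stated by the labels or the design text.

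All enzymes of this family take the methyl group from S-adenosylmethionine (SAM), the methyl donor that cells make from methionine. The MTAP enzyme breaks down methylthioadenosine, which polyamine synthesis leaves behind and which is related to SAM in structure, and returns its parts to the adenine and methionine pools. Methylation of histone H3 at lysine 9 (H3K9) or lysine 27 (H3K27) and of DNA is known mainly from silent chromatin, while methylation of H3 at lysine 4 (H3K4), 36 (H3K36) and 79 (H3K79) is known from active genes. The arrays measured RNA of these genes, not the methyl marks or the enzymes' activity.

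MTAP itself read 11.21, 11.30 and 11.10 in inhibitor-treated MTAP+ cells, 11.63, 11.74 and 11.37 in untreated MTAP+ cells and 4.41, 4.25 and 5.02 in MTAP- cells (log2 values, replicates 1 to 3). The arrays thus matched their MTAP labels. Of the mesenchymal markers 7 of 8 carried values, against 0 of 6 epithelial, 0 of 5 blood and 0 of 4 endothelial markers. MTAP- replicate 3 stood apart in its ACTB and GAPDH control probe sets. For ACTB, those near the 5′ end of the transcript read lower than those at the 3′ end. The log2 difference was -3.52 there and between -2.17 and -0.88 on the other 8 arrays. For GAPDH it was -1.06 there and between -0.51 and -0.02 on the others. Whether RNA quality set this array apart was not tested. For the differences printed here, with 1 probe set per gene, calls that were lost or gained without this array are marked as such. Such changes in comparisons not printed for a gene are not listed.

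The 36 genes changed about as often as genes at large. In MTAP+ over MTAP- cells, 8 of 36 members passed the threshold (limma, Benjamini-Hochberg adjusted p below 0.05 over all genes): EHMT2, SETDB1, KMT2B and KMT2E rose, and EZH2, SUV39H2, NSD1 and SMYD2 fell. That is 22.2% of members, beside 18.5% of the 9452 genes tested (MTAP left out), with 11.7% of all genes higher and 6.85% lower. With the inhibitor over untreated MTAP+ cells, 4 members passed: DNMT3A, EZH1 and KMT5B rose and EZH2 fell, 11.1% beside 13.4% of all genes (5.95% higher, 7.49% lower). Between inhibitor-treated MTAP+ cells and MTAP- cells, which differ in both MTAP and treatment, 13 members passed, 5 higher and 8 lower, 36.1% beside 35% of all genes (18.8% higher, 16.2% lower).

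No array of one group reached into the range of the other, so that the values did not overlap, for 15 members in MTAP+ over MTAP- cells (41.7%, beside 34.8% of all genes). The same held for 12 members with the inhibitor over untreated MTAP+ cells (33.3%, beside 34.8%) and for 21 members with the inhibitor over MTAP- cells (58.3%, beside 52.7%). Sizes were alike too. The median absolute log2 difference of the members was 0.21, 0.17 and 0.27 in these 3 comparisons, beside 0.21, 0.19 and 0.27 for all genes, and no member differed by 1 or more on the log2 scale, while 2.41%, 1.02% and 5.40% of all genes did. EZH2 was the 1 member to pass in all 3 comparisons, and 20 members passed in none. The comparisons share arrays, so a gene that passes in several does not count as repeated evidence.

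When all arrays were centred on their medians, the split of all changed genes moved to 828 higher and 992 lower in MTAP+ over MTAP- cells, from 1103 and 647 as deposited, and to 1512 and 1908 in inhibitor-treated MTAP+ over MTAP- cells, from 1776 and 1530. Among the members the same centring gave 3 higher and 5 lower in MTAP+ over MTAP- cells. None of the 8 calls in MTAP+ over MTAP- cells held in every alternative tried, nor did any of the 4 with the inhibitor over untreated cells, but of the 13 in inhibitor-treated over MTAP- cells 6 held wherever they were tested. SETDB1 and KMT2B held in all 21 alternatives. EZH2, SUV39H2, NSD1 and SMYD3 held in the 20 that could be run for each, since NSD1 fails the stricter filter on low values and the other 3 have no probe set left once those ending in _s_at, _x_at or _a_at, which can match several transcripts or genes, are set aside. With the ACTB difference as a covariate, 0 members passed in MTAP+ over MTAP- cells by limma, with 7 at an unadjusted p below 0.05. The share of all genes fell there too, to 7%. Without MTAP- replicate 3, the calls in MTAP+ over MTAP- cells were 3 (8.33%, beside 10.7% of all genes), all lower: EZH2, SUV39H2 and NSD1.

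**Figure D1:**
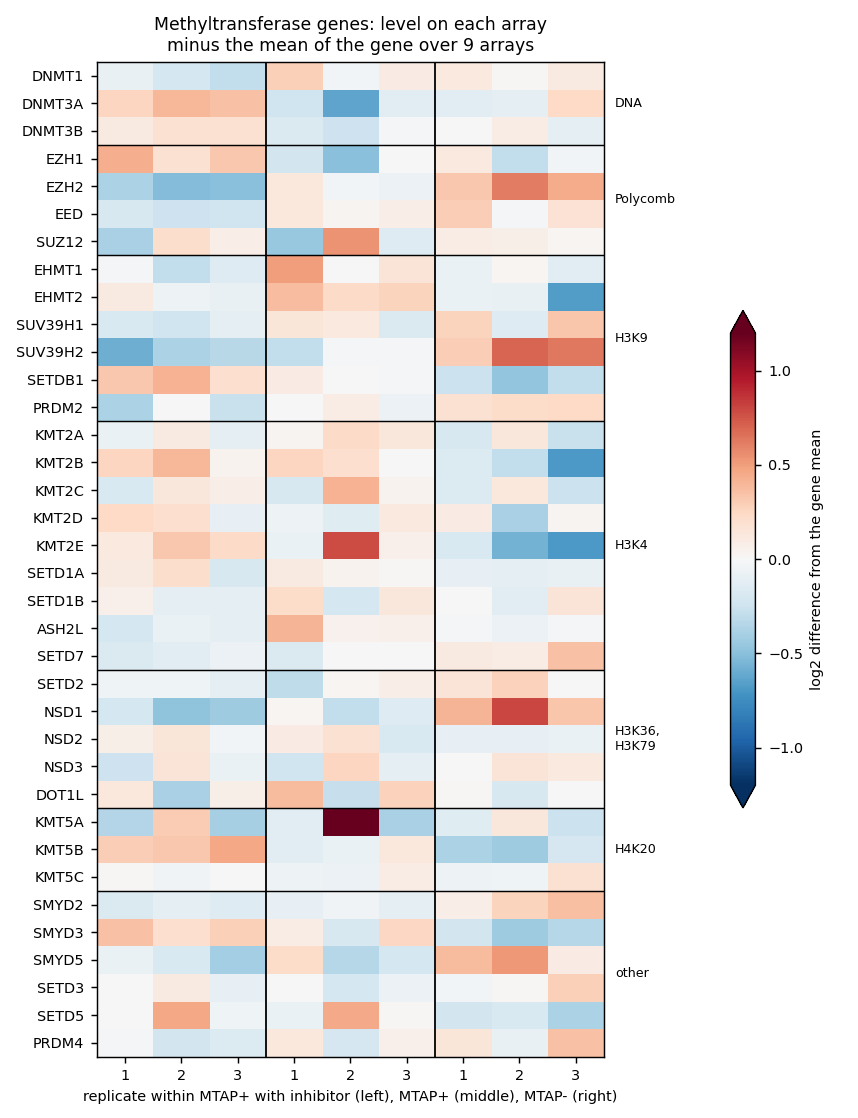
Level of each of the 36 methyltransferase genes on each of the 9 arrays, as a log2 difference from the gene's mean over the arrays (red higher, blue lower, colours capped at the ends of the bar). Columns run from inhibitor-treated MTAP+ through MTAP+ to MTAP-, rows by role. EZH2 and SUV39H2 turn from blue to red across the 3 groups, SETDB1 and KMT5B from red to blue, and most rows show no such order.

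**Figure D2:**
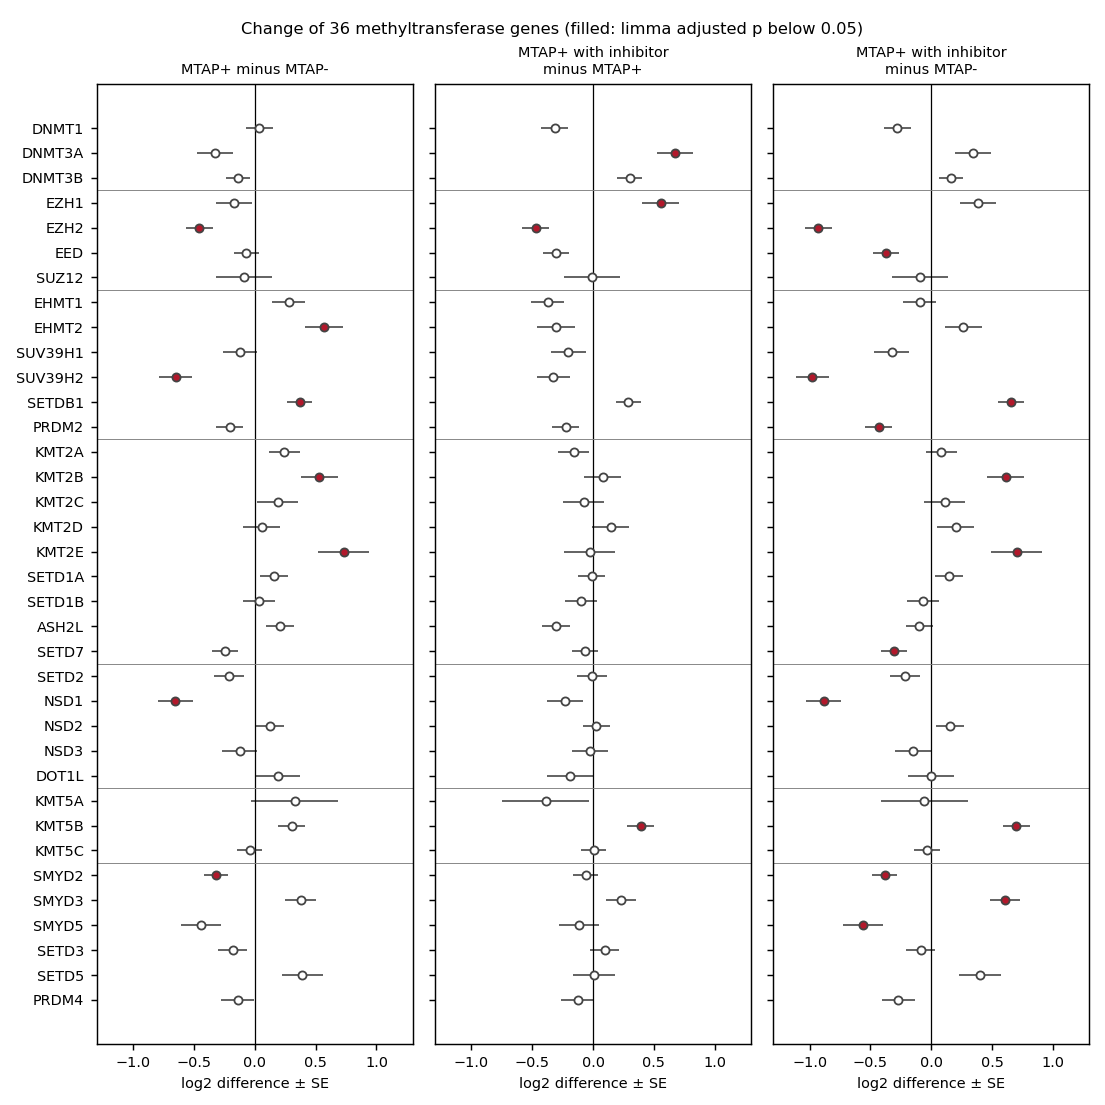
Log2 difference of each member with its standard error (bars) in the 3 comparisons, with filled points for a limma adjusted p below 0.05. Of 36 genes 8, 4 and 13 are filled, and no point lies at or beyond 1 in either direction.

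The Polycomb repressive complex that methylates H3K27 gave the member with changes in every comparison. EZH2, its main catalytic subunit in dividing cells, read 8.38, 8.24 and 8.26 in inhibitor-treated MTAP+ cells, 8.88, 8.72 and 8.69 in MTAP+ cells and 9.08, 9.38 and 9.21 in MTAP- cells. Each group lay wholly below the next. Means were 8.29 ± 0.08, 8.76 ± 0.10 and 9.22 ± 0.15 (SD, n = 3 each). EZH2 fell by 0.46 ± 0.11 (SE) in MTAP+ over MTAP- cells (adjusted p = 0.0179), fell by 0.47 ± 0.11 with the inhibitor over MTAP+ cells (0.0202) and by 0.93 ± 0.11 with the inhibitor over MTAP- cells (0.000193), which is 1.37-fold, 1.39-fold and 1.90-fold lower. In bulk cultures, fewer cells that express a gene and less of its RNA per cell cannot be told apart.

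The last of these differences kept its call in the 20 alternatives run for EZH2. The call in MTAP+ over MTAP- cells was lost without MTAP+ replicate 3 (adjusted p = 0.0663) or MTAP- replicate 2 (0.0568) and with the ACTB covariate (-0.44, adjusted p = 0.114). The call with the inhibitor over MTAP+ cells was lost without inhibitor replicate 2 (0.0726), inhibitor replicate 3 (0.0873) or MTAP+ replicate 1 (0.0668).

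EZH1, the other catalytic subunit, known from cells that divide little, read 8.35, 8.09 and 8.24 in inhibitor-treated MTAP+ cells, 7.69, 7.41 and 7.90 in MTAP+ cells and 8.03, 7.61 and 7.88 in MTAP- cells. It rose by 0.56 ± 0.15 with the inhibitor over MTAP+ cells (adjusted p = 0.0363), 1.47-fold, with no overlap of the 2 groups. This call was lost when any 1 of the 3 inhibitor arrays, MTAP+ replicate 1 or MTAP+ replicate 2 was left out (adjusted p from 0.0585 to 0.120). A second EZH1 probe set gave 0.36 in this comparison (0.140 over all probe sets). The mean of both probe sets gave 0.46 (0.0544), past no threshold. MTAP+ and MTAP- cells overlapped in EZH1, with a difference of -0.17 (95% interval -0.51 to 0.16). So EZH1 and EZH2 moved in opposite directions with the inhibitor.

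EED, the subunit that binds methylated H3K27, read 9.78, 9.72 and 9.73 with the inhibitor, 10.09, 10.00 and 10.05 in MTAP+ cells and 10.27, 9.95 and 10.14 in MTAP- cells. It fell by 0.37 ± 0.11 in inhibitor-treated over MTAP- cells (adjusted p = 0.0187), a call lost without inhibitor replicate 2 or 3 or MTAP- replicate 1 or 3 (from 0.0517 to 0.0721). Inhibitor-treated and untreated MTAP+ cells did not overlap, at a difference of -0.30 (adjusted p = 0.0818). SUZ12, the subunit that holds the complex together, read 9.61, 10.21 and 10.08 with the inhibitor, 9.54, 10.54 and 9.85 in MTAP+ cells and 10.09, 10.07 and 10.02 in MTAP- cells. Its replicates spread more within both MTAP+ groups than the groups differed.

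SUV39H2, which trimethylates H3K9, showed the same order of groups as EZH2. It read 8.19, 8.40 and 8.45 with the inhibitor, 8.49, 8.77 and 8.76 in MTAP+ cells and 9.07, 9.48 and 9.42 in MTAP- cells, again with no overlap between any 2 groups. It fell by 0.65 ± 0.14 in MTAP+ over MTAP- cells (adjusted p = 0.00948), 1.57-fold, and by 0.98 ± 0.14 in inhibitor-treated over MTAP- cells (0.000513), 1.97-fold. Both calls held when any 1 array was left out, and the first was lost with the ACTB covariate, at -0.58 (0.0872). With the inhibitor over MTAP+ cells the difference was -0.33 (adjusted p = 0.145), and 0.0325 with the replicate number as a block.

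The stretches of DNA just before the RefSeq transcription starts of EZH2 and SUV39H2 are shown because these 2 members have the largest falls with the inhibitor over MTAP- cells, a choice made after the values were seen. Each runs 5′ to 3′ along the gene and ends at the base before the start, and capitals mark the CCAAT box on either strand (CCAAT or ATTGG), a motif bound by NF-Y and common before cell cycle genes. The EZH2 window is chr7:148884292-148884541 of GRCh38.p14, minus strand, and the SUV39H2 window is chr10:14878616-14878865, plus strand.
EZH2: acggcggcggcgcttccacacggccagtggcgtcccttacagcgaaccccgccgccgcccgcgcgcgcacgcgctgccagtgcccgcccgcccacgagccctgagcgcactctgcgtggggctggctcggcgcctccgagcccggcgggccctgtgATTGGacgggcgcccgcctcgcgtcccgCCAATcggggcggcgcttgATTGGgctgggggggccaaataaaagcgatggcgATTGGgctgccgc
SUV39H2: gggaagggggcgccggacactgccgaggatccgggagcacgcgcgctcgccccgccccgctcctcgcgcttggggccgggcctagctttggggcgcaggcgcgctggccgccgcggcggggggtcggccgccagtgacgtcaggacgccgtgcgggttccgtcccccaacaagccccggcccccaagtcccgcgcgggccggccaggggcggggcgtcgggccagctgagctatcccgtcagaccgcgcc

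Both windows span 250 bases and are rich in G and C, at 75.6% for EZH2 and 79.6% for SUV39H2. The EZH2 window holds 4 CCAAT boxes, none overlapping another motif, and at least 4 occur in 0.874% of 35116 windows of the same length before RefSeq starts. A second listed EZH2 start has none in its window, nor does the SUV39H2 window. Over the table, CCAAT occurs in 32.01% of windows. Neither window holds an E2F word (TTTCCCGC, TTTCGCGC, TTTGCCGC or TTTGGCGC, in 2.79% of windows) or a CHR word (TTTGAA, in 13.32%), searched on both strands. Windows were found for 32 of the 36 members. Of these genes 13 have a CCAAT box in at least 1 window, 3 an E2F word (NSD2, SUZ12 and EZH1) and 3 a CHR word (PRDM2, NSD2 and SUZ12), beside 37.0%, 3.4% and 16.05% of all genes in the table. A match is a run of letters and says nothing about binding in these cells.

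**Figure D3:**
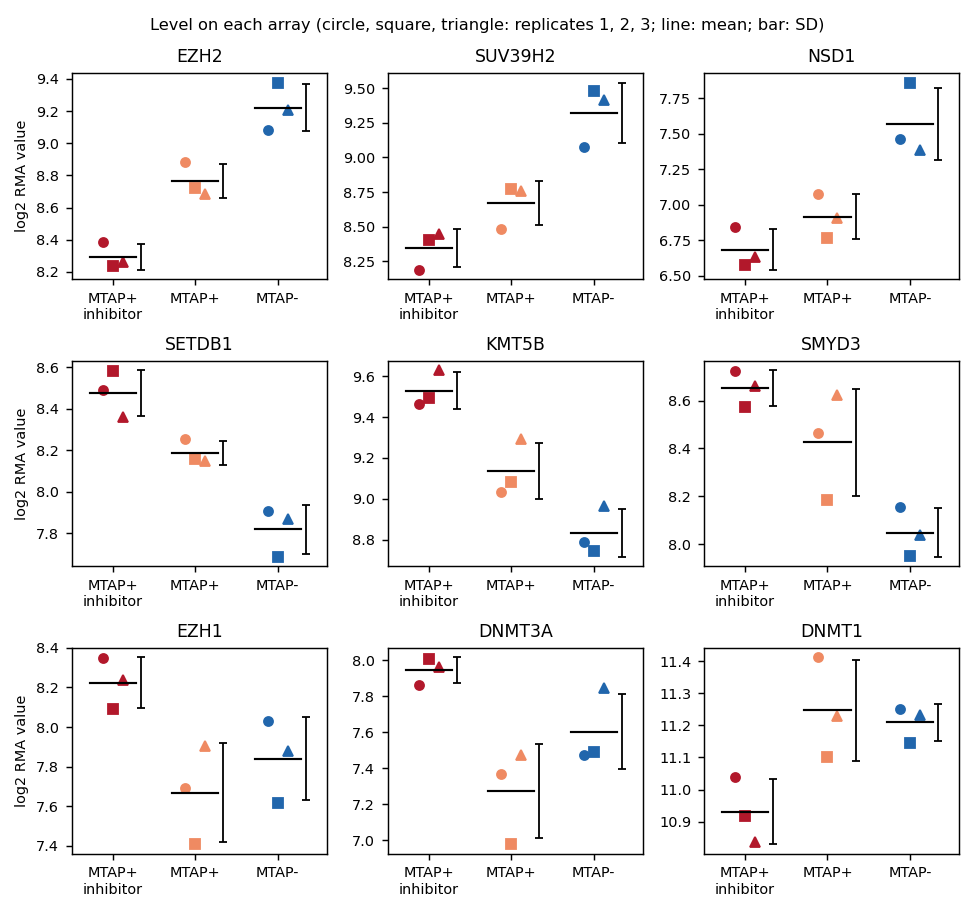
Log2 level of 9 methyltransferase genes on each array (symbols by replicate), with the group mean (line) and SD (bar), for inhibitor-treated MTAP+, MTAP+ and MTAP- cells from left to right. EZH2, SUV39H2, SETDB1 and KMT5B show 3 groups without overlap, NSD1 and SMYD3 separate MTAP- from both MTAP+ groups, and DNMT3A, EZH1 and DNMT1 separate the inhibitor group from both others. Axes do not start at 0 and differ between genes.

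Many genes of DNA replication and division fell with the inhibitor, in which EZH2 was also lower. Of 23 such genes, all with values, 0 rose and 11 fell with the inhibitor over MTAP+ cells (47.8%, beside 7.49% of all genes), and 0 rose and 15 fell with the inhibitor over MTAP- cells (65.2%, beside 16.2%). In MTAP+ over MTAP- cells 0 rose and 2 fell (8.7%, beside 6.85%), and 1 fell without MTAP- replicate 3, with 16 of the 23 differences below 0. At an unadjusted p below 0.05, 0 rose in each. The mean log2 level of the list ranged from 9.42 to 9.65 in inhibitor-treated MTAP+ cells, from 9.95 to 10.15 in MTAP+ cells and from 10.18 to 10.26 in MTAP- cells. Their median log2 difference was -0.43 with the inhibitor over MTAP+ cells, -0.66 with the inhibitor over MTAP- cells and -0.19 in MTAP+ over MTAP- cells, beside -0.018, 0.0020 and 0.021 for all genes. PCNA, the replication clamp, fell by 0.70 ± 0.10 with the inhibitor over MTAP+ cells (adjusted p = 0.00304), and RRM2, which makes deoxynucleotides, by 1.02 ± 0.17 (0.00556). CDC6, which loads the replicative helicase, fell by 0.997 ± 0.17 (0.00605). Cyclin E2, CCNE2, was at least 2.33-fold lower, since its mean with the inhibitor lay below the lowest level the deposited table was filtered on. The part of proliferation in the changes of EZH2, SUV39H2 and the DNA methylation genes was not tested.

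Among the DNA methyltransferases, DNMT3A, one of the enzymes that methylate new sites, read 7.86, 8.01 and 7.96 with the inhibitor, 7.37, 6.98 and 7.47 in MTAP+ cells and 7.47, 7.49 and 7.85 in MTAP- cells. All 3 inhibitor arrays lay above all others. It rose by 0.67 ± 0.15 with the inhibitor over MTAP+ cells (adjusted p = 0.0163), 1.59-fold. The call was lost without inhibitor replicate 2 (0.0567) or inhibitor replicate 3 (0.0687). Over MTAP- cells the difference was 0.34 (adjusted p = 0.0994), and it was 0.46 (0.045) without MTAP- replicate 3.

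DNMT1, which copies methylation to the new strand after replication, read 11.04, 10.92 and 10.84 with the inhibitor, 11.41, 11.10 and 11.23 in MTAP+ cells and 11.25, 11.14 and 11.23 in MTAP- cells. The inhibitor arrays lay below all 6 others, with a difference of -0.32 from MTAP+ cells (adjusted p = 0.0835, and 0.0448 with the replicate block). MTAP+ and MTAP- cells overlapped, at 0.04 (95% interval -0.21 to 0.28). DNMT3B, the other enzyme for new sites, read 7.55, 7.62 and 7.62 with the inhibitor, 7.27, 7.20 and 7.42 in MTAP+ cells and 7.44, 7.53 and 7.33 in MTAP- cells. It stood 0.30 above MTAP+ cells with the inhibitor (adjusted p = 0.0772), without overlap.

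Of the partners of DNA methylation, 11 of 14 had values. With the inhibitor over MTAP+ cells 0 rose and 3 fell (27.3% changed, beside 13.4% of all genes). In MTAP+ over MTAP- cells 1 rose and 2 fell (27.3%, beside 18.5%), or 1 and 1 without MTAP- replicate 3. With the inhibitor over MTAP- cells 1 rose and 4 fell (45.5%, beside 35%). At an unadjusted p below 0.05, 1 was higher with the inhibitor over MTAP+ cells. UHRF1, which brings DNMT1 to freshly copied DNA, read 9.38, 9.38 and 9.13 with the inhibitor, 10.39, 10.19 and 10.08 in MTAP+ cells and 10.31, 10.71 and 10.25 in MTAP- cells. It fell by 0.92 ± 0.14 with the inhibitor over MTAP+ cells (adjusted p = 0.00396), 1.90-fold, with every inhibitor array below every other array. HELLS, a chromatin remodeller needed for DNA methylation in mice, read 7.64, 7.31 and 7.64 with the inhibitor, 8.17, 8.65 and 8.42 in MTAP+ cells and 8.90, 9.36 and 8.81 in MTAP- cells. It fell by 0.88 ± 0.17 with the inhibitor over MTAP+ cells (0.00977) and by 0.61 ± 0.17 in MTAP+ over MTAP- cells (0.0336), the second call being lost without any 1 of inhibitor replicate 3, MTAP+ replicates 1 and 3 and MTAP- replicates 1 and 2 (from 0.0503 to 0.105). UHRF2, related to UHRF1, rose by 0.42 ± 0.10 in MTAP+ over MTAP- cells (0.0143), and TDG, a glycosylase of active demethylation, fell by 0.43 ± 0.12 (0.0345). The TDG call was lost in 8 of the 9 leave-outs, with -0.32 (adjusted p = 0.115) without MTAP- replicate 3, while that of UHRF2 held in all 9. MBD2, a reader of methylated DNA, fell by 0.40 ± 0.10 with the inhibitor over MTAP+ cells (0.0309), a call lost without inhibitor replicate 1 or 3 or MTAP+ replicate 1 or 2 (from 0.0647 to 0.127).

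The other H3K9 enzymes did not move together. SETDB1, which trimethylates H3K9 with TRIM28, read 8.49, 8.58 and 8.36 with the inhibitor, 8.25, 8.16 and 8.15 in MTAP+ cells and 7.90, 7.68 and 7.87 in MTAP- cells. Each group lay wholly above the next, the reverse of SUV39H2. SETDB1 rose by 0.37 ± 0.10 in MTAP+ over MTAP- cells (adjusted p = 0.0352) and by 0.66 ± 0.10 in inhibitor-treated over MTAP- cells (0.000967), 1.58-fold. The first call was lost without any 1 of inhibitor replicate 1, MTAP+ replicates 1 and 3 and MTAP- replicates 2 and 3 (from 0.0555 to 0.0986), and after centring (0.0856). A second SETDB1 probe set gave -0.10 in MTAP+ over MTAP- cells (0.569 over all probe sets). In inhibitor-treated over MTAP- cells it gave 0.22 (0.149 over all probe sets), past no threshold.

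EHMT2, also called G9a, which dimethylates H3K9, read 8.32, 8.15 and 8.11 with the inhibitor, 8.58, 8.44 and 8.48 in MTAP+ cells and 8.13, 8.12 and 7.54 in MTAP- cells. MTAP- replicate 3 was the lowest array. EHMT2 rose by 0.57 ± 0.15 in MTAP+ over MTAP- cells (adjusted p = 0.0298), and by 0.37 (0.0661, past no threshold) without MTAP- replicate 3. The call was also lost without MTAP+ replicate 1 (0.0753) or 3 (0.0727). Its second probe set differed by -0.0018 in MTAP+ over MTAP- cells. EHMT1, the partner of EHMT2, was below all MTAP+ arrays with the inhibitor, at -0.37 (adjusted p = 0.0990), with 8.44, 8.16 and 8.30 against 8.95, 8.45 and 8.61.

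PRDM2, a zinc finger protein with H3K9 activity, read 7.65, 8.02 and 7.76 with the inhibitor, 8.03, 8.11 and 7.96 in MTAP+ cells and 8.21, 8.25 and 8.27 in MTAP- cells. It fell by 0.43 ± 0.11 in inhibitor-treated over MTAP- cells (adjusted p = 0.0134), a call lost without inhibitor replicate 1 (0.0597) or 3 (0.0534). SUV39H1, the paralog of SUV39H2, overlapped between all groups, with differences of -0.12, -0.20 and -0.33 in the 3 comparisons and the lowest adjusted p at 0.101. Partners of H3K9 methylation and HP1 proteins, 7 of 7 with values, had 0 changed in MTAP+ over MTAP- cells, beside 18.5% of all genes. At an unadjusted p below 0.05 by limma, 0 changed there too. With the inhibitor over MTAP+ cells 1 fell (14.3%, beside 7.49% of all genes). This was CBX1, the HP1 beta protein, by 0.36 ± 0.10 (0.0379). Its call was lost without any 1 of the 3 inhibitor arrays, MTAP+ replicates 1 and 3 and MTAP- replicate 1 (from 0.0517 to 0.121). TRIM28 differed by -0.28 there (0.190) and CBX3 by -0.12 (0.630). With the inhibitor over MTAP- cells, CBX1 fell by 0.535 ± 0.10 (adjusted p = 0.00231), a call that held in all 9 leave-outs. TRIM28 differed by -0.27 in that comparison (0.147), and by -0.39 (0.0439) without MTAP- replicate 3.

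Of the 9 H3K4 genes, 2 rose in MTAP+ over MTAP- cells (22.2%, beside 11.7% of all genes). KMT2B, a catalytic subunit of the MLL family, read 8.52, 8.66 and 8.30 with the inhibitor, 8.52, 8.46 and 8.25 in MTAP+ cells and 8.10, 7.97 and 7.57 in MTAP- cells, so that both MTAP+ groups lay above all MTAP- arrays. It rose by 0.53 ± 0.15 in MTAP+ over MTAP- cells (adjusted p = 0.0369) and by 0.61 ± 0.15 in inhibitor-treated over MTAP- cells (0.0109). Without MTAP- replicate 3 the first was 0.38 (0.116), and it was lost with 5 other arrays left out in turn (inhibitor replicate 1, MTAP+ replicates 1, 2 and 3, MTAP- replicate 2, from 0.0504 to 0.0966).

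KMT2E, whose SET domain has no known activity on histones and which binds methylated H3K4, read 8.19, 8.40 and 8.31 with the inhibitor, 7.99, 8.85 and 8.13 in MTAP+ cells and 7.90, 7.51 and 7.39 in MTAP- cells. MTAP+ replicate 2 stood well above the other arrays. KMT2E rose by 0.73 ± 0.21 in MTAP+ over MTAP- cells (adjusted p = 0.037), 1.66-fold, and by 0.70 ± 0.21 in inhibitor-treated over MTAP- cells (0.0248). The first was 0.47 without MTAP+ replicate 2 (0.0547) and was 0.62 without MTAP- replicate 3 (0.116). It was lost in 7 of the 9 leave-outs, and the second was lost without inhibitor replicate 2 or 3 or MTAP- replicate 2 or 3 (from 0.0693 to 0.0834). A KMT2E probe set ending in _x_at gave 0.86 and 0.76 in these 2 comparisons. The third, the 1 without such an ending, gave 0.35 and 0.25, and both calls were lost when it was used (0.348 and 0.452).

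SETD7, which monomethylates H3K4 and other proteins, read 9.75, 9.79 and 9.85 with the inhibitor, 9.75, 9.92 and 9.92 in MTAP+ cells and 10.03, 10.01 and 10.27 in MTAP- cells. It fell by 0.31 ± 0.11 in inhibitor-treated over MTAP- cells (adjusted p = 0.045), lost in 6 leave-outs, with -0.22 (0.156) without MTAP- replicate 3. ASH2L, the subunit shared by the MLL and SET1 complexes, read 9.56, 9.69 and 9.65 with the inhibitor, against 10.18, 9.82 and 9.83 in MTAP+ cells, a difference of -0.31 (adjusted p = 0.104). KMT2A, KMT2C, KMT2D, SETD1A and SETD1B did not pass in any comparison, with differences between -0.16 and 0.24. Among the further COMPASS subunits, 10 of 11 had values. In MTAP+ over MTAP- cells 0 changed (0 at an unadjusted p below 0.05), beside 18.5% of all genes. With the inhibitor over MTAP+ cells 2 fell (20%, beside 7.49% of all genes), or 1 without MTAP- replicate 3. PAGR1, which sits in the KMT2C and KMT2D complexes, read 8.20, 8.13 and 7.996 with the inhibitor, against 9.02, 8.66 and 8.64 in MTAP+ cells, and fell by 0.67 ± 0.13 (adjusted p = 0.0107), lost without inhibitor replicate 3 (0.0608). PAXIP1 of the same complexes fell by 0.36 ± 0.11 (0.0457), a call lost in 8 of the 9 leave-outs, among them MTAP- replicate 3 (0.0599). WDR82, a subunit of the SET1 complexes, differed by -0.31 (0.0994) and PSIP1 by 0.29 (0.342).

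Of the H3K36 and H3K79 enzymes, 1 of 5 changed. That is 20%, beside 18.5% of all genes in MTAP+ over MTAP- cells and 35% with the inhibitor over MTAP- cells. NSD1, which mono- and dimethylates H3K36, read 6.85, 6.58 and 6.63 with the inhibitor, 7.08, 6.77 and 6.90 in MTAP+ cells and 7.46, 7.86 and 7.39 in MTAP- cells. Both MTAP+ groups lay below all MTAP- arrays. Inhibitor replicates 2 and 3 were under 6.64, the log2 of 100 that every gene in the deposited table reaches on at least 3 arrays. NSD1 fell by 0.65 ± 0.15 in MTAP+ over MTAP- cells (adjusted p = 0.0123), 1.57-fold, and by 0.88 ± 0.15 in inhibitor-treated over MTAP- cells (0.00114), 1.85-fold. Both calls held with any 1 array left out, and the first was lost with the ACTB covariate (0.0668), at a difference of -0.68. NSD3 read 9.09, 9.49 and 9.26 with the inhibitor, 9.10, 9.59 and 9.22 in MTAP+ cells and 9.34, 9.49 and 9.45 in MTAP- cells, with overlap throughout. SETD2, which trimethylates H3K36, NSD2, and DOT1L, the H3K79 enzyme, which has no SET domain, differed by -0.22 to 0.19 with none past the threshold. Among the NSD2 probe sets not used, 1 stood 0.36 higher with the inhibitor over MTAP- cells (0.0188 over all probe sets), and the others differed there by -0.25 to 0.42 with none past it.

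KMT5B, which di- and trimethylates lysine 20 of histone H4 (H4K20), read 9.47, 9.49 and 9.63 with the inhibitor, 9.04, 9.08 and 9.29 in MTAP+ cells and 8.79, 8.74 and 8.97 in MTAP- cells. Each group lay above the next. It rose by 0.39 ± 0.11 with the inhibitor over MTAP+ cells (adjusted p = 0.0419), 1.31-fold, and by 0.70 ± 0.11 over MTAP- cells (0.000967), 1.62-fold. In MTAP+ over MTAP- cells it differed by 0.30 (0.0812, and 0.0318 with the replicate block). A second KMT5B probe set went the other way with the inhibitor, reading 6.59, 7.30 and 6.83 against 6.95, 7.998 and 7.60 in MTAP+ cells, a difference of -0.61 (0.169 over all probe sets). The mean of both probe sets gave -0.11 with the inhibitor over MTAP+ cells (0.679) and 0.26 over MTAP- cells (0.191). The first call was also lost in 6 leave-outs, among them inhibitor replicate 3 (0.168). KMT5A, which monomethylates H4K20, read 8.55, 9.21 and 8.51 with the inhibitor, 8.78, 10.14 and 8.52 in MTAP+ cells and 8.75, 9.04 and 8.65 in MTAP- cells. On this probe set replicate 2 was highest in each group, and the differences had 95% intervals as wide as -1.18 to 0.40. The other KMT5A probe sets all read lower with the inhibitor. Their differences were -0.13 to -0.47 over MTAP+ cells and -0.18 to -0.36 over MTAP- cells, with none past the threshold over all probe sets. KMT5C differed by at most 0.04 in either direction.

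Among other SET domain proteins, SMYD3, a lysine methyltransferase of the cytoplasm and nucleus, read 8.72, 8.57 and 8.66 with the inhibitor, 8.47, 8.19 and 8.62 in MTAP+ cells and 8.16, 7.95 and 8.04 in MTAP- cells. MTAP- cells lay below both other groups. SMYD3 rose by 0.60 ± 0.12 in inhibitor-treated over MTAP- cells (adjusted p = 0.00397), 1.52-fold, and differed by 0.38 in MTAP+ over MTAP- cells (0.0594, and 0.0267 with the replicate block). SMYD2, which methylates p53 among other proteins, read 9.30, 9.37 and 9.32 with the inhibitor, 9.38, 9.43 and 9.36 in MTAP+ cells and 9.56, 9.75 and 9.84 in MTAP- cells. It fell by 0.32 ± 0.10 in MTAP+ over MTAP- cells (0.0494) and by 0.38 ± 0.10 in inhibitor-treated over MTAP- cells (0.0141). Without MTAP- replicate 3 these were -0.26 (0.157) and -0.32 (0.0537), and the first was lost in 8 of 9 leave-outs.

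SMYD5 read 7.97, 7.86 and 7.64 with the inhibitor, 8.27, 7.70 and 7.84 in MTAP+ cells and 8.42, 8.57 and 8.15 in MTAP- cells. It fell by 0.56 ± 0.17 in inhibitor-treated over MTAP- cells (adjusted p = 0.0238), lost in 4 leave-outs, and differed by -0.44 in MTAP+ over MTAP- cells (0.0860, and 0.0374 with the replicate block). SETD5 read 9.89, 10.37 and 9.85 with the inhibitor, 9.81, 10.36 and 9.91 in MTAP+ cells and 9.67, 9.71 and 9.52 in MTAP- cells. Both MTAP+ groups lay above MTAP- cells, at 0.39 in MTAP+ over MTAP- cells (0.136, and 0.0338 with the replicate block), though a second SETD5 probe set gave -0.28. SETD3, known to methylate a histidine of actin, differed by -0.18 to 0.10, while a second SETD3 probe set stood 0.64 higher with the inhibitor over MTAP+ cells (0.0374 over all probe sets). PRDM4 differed by -0.13 to -0.27, with overlap in every comparison. With the replicate block 12 members passed the threshold in MTAP+ over MTAP- cells (33.3%, beside 25.9% of all genes). With the inhibitor over MTAP+ cells 6 passed (16.7%, beside 20.3%).

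Genes that act with, against or for these enzymes were counted the same way. Of the Polycomb partners, 15 of 20 had values. In MTAP+ over MTAP- cells 3 rose (20%, beside 11.7% of all genes) and 0 fell (0 lower at an unadjusted p below 0.05). These were PCGF2, a subunit of the second Polycomb complex, by 0.59 ± 0.11 (adjusted p = 0.00467), PHF1 by 0.40 ± 0.11 (0.0306) and PHC2 by 0.39 ± 0.09 (0.0132). Without MTAP- replicate 3, 2 rose, as PHF1 was lost (0.0737); that call was also lost without inhibitor replicate 3, MTAP+ replicate 1 or MTAP- replicate 2 (from 0.0505 to 0.0878). With the inhibitor over MTAP+ cells, JARID2, which helps place the H3K27 complex, rose by 0.51 ± 0.15 (0.0482) and CBX2, a reader of methylated H3K27, fell by 0.37 ± 0.10 (0.0373). The JARID2 call was lost in 8 of the 9 leave-outs, among them MTAP- replicate 3 (0.0612), and that of CBX2 without any 1 of the 3 inhibitor arrays or MTAP+ replicate 1 or 3 (from 0.0624 to 0.137). JARID2 read 9.75, 9.59 and 9.63 with the inhibitor, 9.28, 8.76 and 9.39 in MTAP+ cells and 8.77, 8.62 and 8.63 in MTAP- cells, so that EZH2 and this partner ran in opposite order. Over MTAP- cells 6 partners rose and 1 fell with the inhibitor (40% and 6.67%, beside 18.8% and 16.2% of all genes). Without MTAP- replicate 3 the counts were 5 and 0, with CBX2 at an adjusted p of 0.0516 and PHF1 at 0.0694.

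Of the lysine demethylases, 20 of 23 had values. In MTAP+ over MTAP- cells 4 rose (20%, beside 11.7% of all genes) and 0 fell (1 lower at an unadjusted p below 0.05). Without MTAP- replicate 3, 1 rose. KDM3A, which removes methyl groups from H3K9, read 9.93, 10.19 and 10.15 with the inhibitor, 10.01, 10.17 and 10.18 in MTAP+ cells and 9.30, 9.35 and 9.36 in MTAP- cells. It rose by 0.79 ± 0.11 in MTAP+ over MTAP- cells (adjusted p = 0.000838), 1.73-fold, and differed by -0.04 with the inhibitor over MTAP+ cells. The H3K4 demethylases KDM5B and KDM5C rose by 0.51 ± 0.12 (0.0156) and 0.50 ± 0.14 (0.0315), and PHF2, which acts on H3K9, by 0.38 ± 0.11 (0.0424). These 3 were, without MTAP- replicate 3, at 0.48 (adjusted p = 0.0540), 0.47 (0.0883) and 0.34 (0.124). The calls of KDM5B and KDM5C were lost in 3 leave-outs each, and that of PHF2 in 7. KDM3A held in all 9 leave-outs. With the inhibitor over MTAP- cells, 6 demethylases rose and 1 fell (30% and 5%, beside 18.8% and 16.2% of all genes). Without MTAP- replicate 3 these counts were 4 and 0. Both counts of rises include KDM7A, whose call was favoured by the filter on low values, as given below. Over MTAP- cells KDM5B rose with the inhibitor by 0.71 ± 0.12 (adjusted p = 0.00123) and KDM5C by 0.61 ± 0.14 (0.00669), and both calls held in all 9 leave-outs. With the inhibitor over MTAP+ cells 1 rose (5%, beside 5.95% of all genes). This was KDM7A, at least 1.73-fold, since its MTAP+ mean of 5.99 lay under log2 of 100. It read 7.21, 7.41 and 7.69 with the inhibitor, 5.26, 6.215 and 6.50 in MTAP+ cells and 6.34, 6.11 and 6.51 in MTAP- cells. Only the inhibitor arrays reach log2 of 100, so KDM7A has values only through the group in which it is high. Its calls in both comparisons with the inhibitor were thus favoured by the filter.

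Genes that supply or use SAM, 9 of 10 with values, changed in MTAP+ over MTAP- cells in 3 cases (33.3%, beside 18.5% of all genes). With the inhibitor over MTAP+ cells 0 changed by limma (3 at an unadjusted p below 0.05), beside 13.4% of all genes. NNMT, which spends SAM on nicotinamide, read 11.46, 11.35 and 11.28 with the inhibitor, 11.36, 11.10 and 11.85 in MTAP+ cells and 10.83, 10.73 and 10.72 in MTAP- cells, and rose by 0.68 ± 0.16 in MTAP+ over MTAP- cells (adjusted p = 0.0189). ADK, which clears the adenosine left from SAM use, fell by 0.42 ± 0.10 (0.0148), and MTRR, which keeps methionine synthase active, by 0.39 ± 0.11 (0.0363). Without MTAP- replicate 3 the adjusted p was 0.0567 for NNMT, 0.0542 for ADK and 0.0925 for MTRR. The call of NNMT was lost in 2 leave-outs, that of ADK in 1 and that of MTRR in 6. MAT2A, which makes SAM, differed by 0.21 in MTAP+ over MTAP- cells (0.349) and 0.08 with the inhibitor (0.761). Of the further SET and PRDM genes, 6 of 17 had values. Among these 3 rose in MTAP+ over MTAP- cells (50%, beside 11.7% of all genes) and 0 fell (0 lower at an unadjusted p below 0.05). The 3 were PRDM11 by 0.62 ± 0.15 (0.0202), SETD6 by 0.45 ± 0.10 (0.0143) and PRDM10 by 0.37 ± 0.10 (0.0348). Of these, 1 passed without MTAP- replicate 3, PRDM11 (0.00863), with SETD6 at 0.0557 and PRDM10 at 0.0607. The PRDM11 call was lost without MTAP+ replicate 3 or MTAP- replicate 1 or 2 (from 0.0503 to 0.0752). That of PRDM10 was lost in 7 leave-outs and that of SETD6 in 1.

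**Figure D4:**
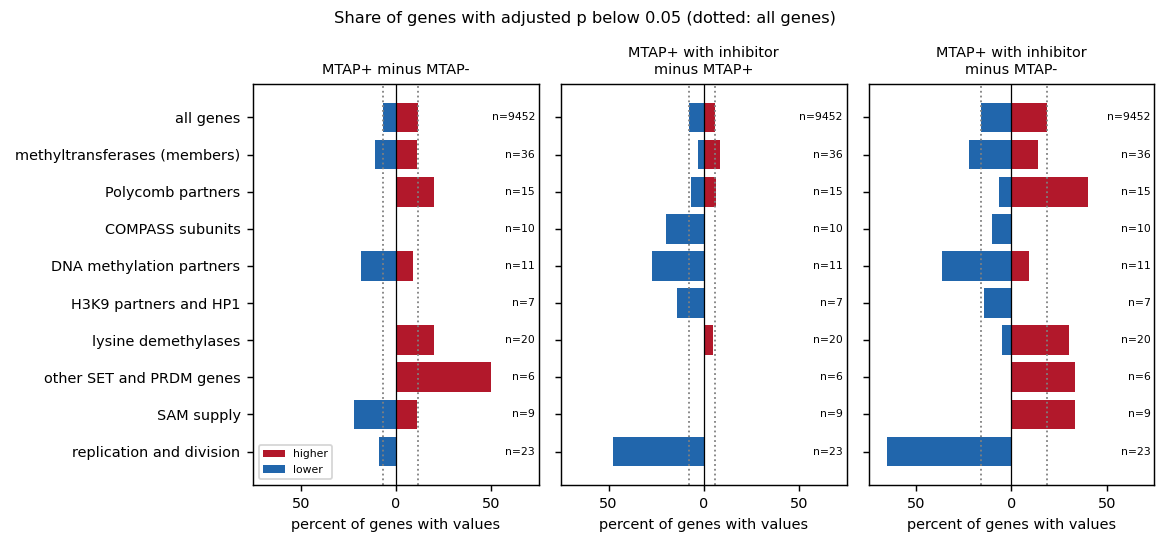
Percent of genes with values that were higher (red, to the right) or lower (blue, to the left) at a limma adjusted p below 0.05, for the methyltransferases and the related lists in the 3 comparisons, with dotted lines at the share of all genes. Methyltransferase shares lie near the dotted lines, while replication and division genes reach 47.8% and 65.2% lower in the 2 comparisons with the inhibitor. Lists hold between 6 and 36 genes, so 1 gene moves a share by 2.78 to 16.7 points.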

How the data were processed

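Total RNA was labelled and hybridised to 1-colour Affymetrix arrays, and the authors deposited log2 values made with RMA, per the submitters' processing notes (version and settings not given in the sources read). RMA normalises arrays by quantiles, which lessens array-wide differences. Of 54675 probe sets listed, 17474 had values, each reaching 100 on the linear scale (6.64 in log2) on 3 or more arrays, so dim genes were already left out, and no further filter was set; 30 of the 36 members pass the stricter one tried (40th percentile, 7.956).

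Probe sets were named by the platform annotation and updated by Entrez number (15482 matched, 0 symbols changed). For a gene with several probe sets, the 1 with the highest mean was used. A limma 3.58.1 model (R 4.3.3) with 3 groups was fitted to all 9 arrays over 9453 genes, with default eBayes and Benjamini-Hochberg adjustment per comparison and a threshold of 0.05. The steps were tested on simulated data. Precision is limited by 3 arrays per group; the median standard error over all genes was 0.13, and p-values measure the spread between these arrays. Levels of different probe sets were not compared.

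The members, gene lists and tests were chosen with earlier results of these data known. Genes named are the members, MTAP and, of each related list, up to 4 changed genes with the largest change per comparison and at most 2 others of high mean level. Same-numbered arrays deviated together from their group means over all genes, at r = 0.346, 0.232 and 0.129 for MTAP+ and MTAP- and 0.722, 0.561 and 0.302 for inhibitor and MTAP+. The replicate number was thus tried as a pairing that comes from the data. The main model and its counts do not use it, and values with it as a block are given where they change a call. Promoter sequences are RefSeq's, GRCh38.p14. Alternatives were the block, array centring, renewed quantile normalisation, a stricter filter, other uses of probe sets, the compared groups alone, an ACTB covariate, array weights, another eBayes setting and each array left out.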

Additional observations from a re-analysis of the deposited data

How the results depend on the processing

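In MTAP+ over MTAP- cells the count of changed members was 5 with the mean of a gene's probe sets, 4 without probe sets ending in _s_at, _x_at or _a_at (24 members tested), 2 with the compared groups alone and 0 with the ACTB covariate, against 8 as reported; leaving out 1 array gave 2 to 8, with 2 without MTAP+ replicate 3, 3 without MTAP- replicate 2 or 3, 4 without inhibitor replicate 1 and 5 without MTAP+ replicate 1. All changed genes there came to 1004 (10.6%) with the compared groups alone and 662 (7%) with the ACTB covariate, against 1750 (18.5%). They came to between 1014 and 2063 (10.7% to 21.8%) with 1 array left out. With the inhibitor over MTAP+ cells, the members were 2 with the mean of probe sets, 2 with every probe set tested, 2 with the ACTB covariate and 8 with array weights, against 4. Leaving out 1 array gave 0 to 4, with 0 without inhibitor replicate 2 or 3 (9 and 10 at an unadjusted p below 0.05 by limma), 1 without MTAP+ replicate 1 and 2 without inhibitor replicate 1. All changed genes there were 1919 (20.3%) with the replicate block and 2057 (21.8%) with array weights, against 1270 (13.4%). They were 370 to 1254 (3.91% to 13.3%) with 1 array left out. In inhibitor-treated over MTAP- cells, the members were 6 without probe sets ending in _s_at, _x_at or _a_at, against 13, and 8 to 17 with 1 array left out, with 8 without inhibitor replicate 3. Of all genes, 35.6% changed there without those probe sets and 24.6% to 39.4% with 1 array left out, against 35%.

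The replicate block gave 12, 6 and 16 changed members in the 3 comparisons (33.3%, 16.7% and 44.4%, beside 25.9%, 20.3% and 42.6% of all genes). It lost none of the reported calls. In inhibitor-treated over MTAP- cells it added DNMT1, EZH1 and SETD5. Same-numbered arrays correlated at 0.286, 0.0308 and 0.0229 there, so the data do not bear out the block. The block without MTAP- replicate 3, added after the data were seen, gave 5 and 7 changed members in the first 2 comparisons (13.9% and 19.4%). All changed genes were 18.6% and 22.8% there, with 2153 genes in the second. KMT5B reversed with the inhibitor over MTAP+ cells, to -0.1072 (adjusted p = 0.679), when its probe sets were averaged, since the second probe set moved the other way. For the other shifts the cause was not tested. The signs of all other changed members held in every alternative that gave them a value. Centring moved the median over all genes by at most 0.0766 on the log2 scale.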

Other observations

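In both MTAP+ groups, replicate 2 had the ACTB difference nearest to 0, at -0.88 with the inhibitor and -1.03 without it, and several members stood apart there, a pattern chosen after the values were seen. Replicate 2 was the highest of 3 arrays in both groups for 10 of 36 members (27.8%, beside 13.0% of all genes), namely SUZ12, PRDM2, KMT2A, KMT2C, KMT2E, NSD2, NSD3, KMT5A, SMYD2 and SETD5. It was the lowest in both for 8 members (22.2%, beside 26.3%), EZH1, EED, EHMT1, NSD1, DOT1L, KMT5C, SMYD3 and PRDM4. These ranks rest on 1 probe set per gene and can differ between probe sets of a gene. An unused probe set of KMT2A, of NSD3 and of KMT5A had replicate 2 lowest in both groups. The unused probe sets of KMT2E had it highest in both. The part of RNA quality in this replicate 2 pattern was not tested.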
